A study of Mus musculus with 6 samples.

Results

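The insulin-like growth factor (IGF) axis was examined through 8 of its genes in bulk RNA-Seq of mouse lateral cortex at embryonic day (E) 12.5. They were 4 IGF binding proteins (Igfbp2, Igfbp3, Igfbp4 and Igfbp5), the ligand Igf1, the receptors Igf1r and Insr, and the adaptor Irs1. The genes were listed by name, with earlier results of these data known. All 8 were found among the 17068 genes of the count table, whose Ensembl identifiers were matched to GENCODE M21. The study compared cortex with and without a conditional loss of Foxp1, a forkhead transcription factor, to ask how Foxp1 acts on HIF-1α signaling and on the neural progenitors of the cortex.

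Each library came from the lateral cortex of a female c57/bl6 embryo. The 4 Control embryos lacked Cre, and by their labels controls 1, 2 and 4 were Foxp1 fl/+ while control 3 was Foxp1 fl/fl. The 2 Foxp1cKO embryos were Foxp1 fl/fl;Emx1Cre. All 6 thus carried at least 1 floxed allele, and no Cre-positive control was among them, so Cre and the loss of Foxp1 cannot be told apart. Emx1-Cre acts in the progenitors of the dorsal telencephalon and their descendants, so vessel cells, blood cells and meninges in the same tissue keep Foxp1.

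Between 50076008 and 78346979 reads were counted on genes in a library. Levels are given in CPM, counts scaled to a library of common size, on which 3 counts are 0.0381 to 0.0596 CPM, a floor for counting error only. Foxp1 itself lay at 59.7, 60.8, 71.2 and 79.1 CPM in controls 1 to 4 and at 83.2 and 76.8 CPM in the libraries labelled Foxp1cKO (log2 fold change 0.24, SE 0.129, adjusted p = 0.468 by edgeR's quasi-likelihood test). That count covers the whole gene, and the deleted exons are not given in the sources used here, so it does not check the genotype labels, and the groups are named by their labels. Embryonic globins (Hbb-y, Hbb-bh1 and Hba-x together) were at 844 to 1061 CPM in controls 1 to 3, 3013 in control 4, and 3263 and 3515 in the libraries labelled Foxp1cKO. Control 3 was highest in a list of ventral telencephalon genes, at 924 summed CPM against 275 to 411 in the other controls, and lowest in cortex identity genes, at 1315 against 1716 to 1799. Cortex identity genes were detected in every library, 7 of the 8 listed being in the table. Nothing in the labels says whether embryos within a group shared a litter, so p-values measure the spread between these libraries.

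IGF1 is a secreted growth factor that binds the receptor tyrosine kinase IGF1R, and IGF1R and the related insulin receptor pass the signal through IRS adaptors to PI3K, AKT and mTOR. IGF binding proteins are secreted carriers that hold the ligand, which can keep it from the receptor or carry it to the cell surface, and proteases cut them to free the ligand. In the embryonic brain the axis is known for its part in the growth and survival of neural progenitors. IGFBP3 is a main carrier of IGF in blood and is also known as a gene that low oxygen can raise.

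The sequences before the starts of the 4 binding protein genes are shown because Igfbp3 was called in the comparison below while Igfbp4 lay within its control range. Each is the 250 bases ahead of the RefSeq transcription start (GRCm38.p6), 5′ to 3′ on the gene's own strand. Capitals mark ACGTG or GCGTG, the core letters of the HIF response element, on either strand.
Igfbp3, chr11:7213924-7214173, minus strand: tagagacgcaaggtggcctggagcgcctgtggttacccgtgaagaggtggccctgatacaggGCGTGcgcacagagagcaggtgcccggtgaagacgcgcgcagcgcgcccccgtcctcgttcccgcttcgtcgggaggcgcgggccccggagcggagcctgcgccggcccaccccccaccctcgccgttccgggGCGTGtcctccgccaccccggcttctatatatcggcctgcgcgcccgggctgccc
Igfbp2, chr1:72824230-72824479, plus strand: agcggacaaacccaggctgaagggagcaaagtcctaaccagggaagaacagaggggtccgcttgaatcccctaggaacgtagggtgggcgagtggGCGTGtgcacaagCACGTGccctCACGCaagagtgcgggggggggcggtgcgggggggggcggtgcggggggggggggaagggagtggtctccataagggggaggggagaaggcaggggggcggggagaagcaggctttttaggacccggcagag
Igfbp5, chr1:72874866-72875115, minus strand: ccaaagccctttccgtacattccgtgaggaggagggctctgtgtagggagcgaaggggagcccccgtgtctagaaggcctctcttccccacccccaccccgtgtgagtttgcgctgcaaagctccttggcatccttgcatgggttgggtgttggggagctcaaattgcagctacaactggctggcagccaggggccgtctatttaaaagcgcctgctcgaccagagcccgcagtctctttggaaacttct
Igfbp4, chr11:99040994-99041243, plus strand: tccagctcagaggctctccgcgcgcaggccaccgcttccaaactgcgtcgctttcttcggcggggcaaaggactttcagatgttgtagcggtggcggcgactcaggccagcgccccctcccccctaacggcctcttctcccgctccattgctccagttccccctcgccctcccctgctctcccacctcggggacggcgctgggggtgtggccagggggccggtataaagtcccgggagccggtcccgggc
The Igfbp3 window held GCGTG at 2 places, beginning 188 and 55 bases before the start. The Igfbp2 window shown, the first of 2 that RefSeq gives for this gene, held 4 matches, of which 2 are the palindrome CACGTG read on both strands, and the other Igfbp2 window held 0. Of the members whose windows are not shown, Igf1r and Irs1 each held 3 matches and Igf1 held 1. For Irs1 too, 2 of the matches are the palindrome CACGTG read on both strands. Neither the Igfbp5 nor the Igfbp4 window held a match. How these matches relate to the levels of the genes was not tested. At least 1 match was present in 38.6% of the 32851 windows of this length, at least 2 in 16.7%, at least 3 in 6.58% and at least 4 in 2.58%. The forkhead letters TGTTTAC and TGTTTAT, searched on both strands, were in none of the 8 windows that the table holds for 7 of the members, and in 3.17% and 4.16% of all windows. Insr had no window. A match of letters is a description and does not show binding.

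In controls, the transcripts were ordered by CPM per kilobase of exon, the scale on which levels of different genes can be compared. Igfbp2 was the most abundant at 71.7 ± 13.4 CPM per kilobase (SD, n = 4), followed by Igfbp5 at 22.5 ± 2.44 and Igfbp4 at 16.9 ± 2.06. The ranges of these 3 genes did not overlap between neighbours. Insr at 10.7 ± 1.19, Irs1 at 9.73 ± 1.63 and Igf1r at 9.59 ± 0.418 followed with overlapping ranges, and their order is not settled by these libraries. Igfbp3 was low at 3.74 ± 0.653, below every library of the genes above it, and Igf1 was lowest at 0.304 ± 0.157. In the libraries labelled Foxp1cKO, Igfbp3 averaged 13.4 ± 0.758 CPM per kilobase (n = 2) and had rank 4, between Igfbp4 at 15.8 ± 2.59 and Irs1 at 13.3 ± 1.94. The places of the genes next to each other in that stretch cannot be told apart with 2 libraries.

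**Figure D1:**
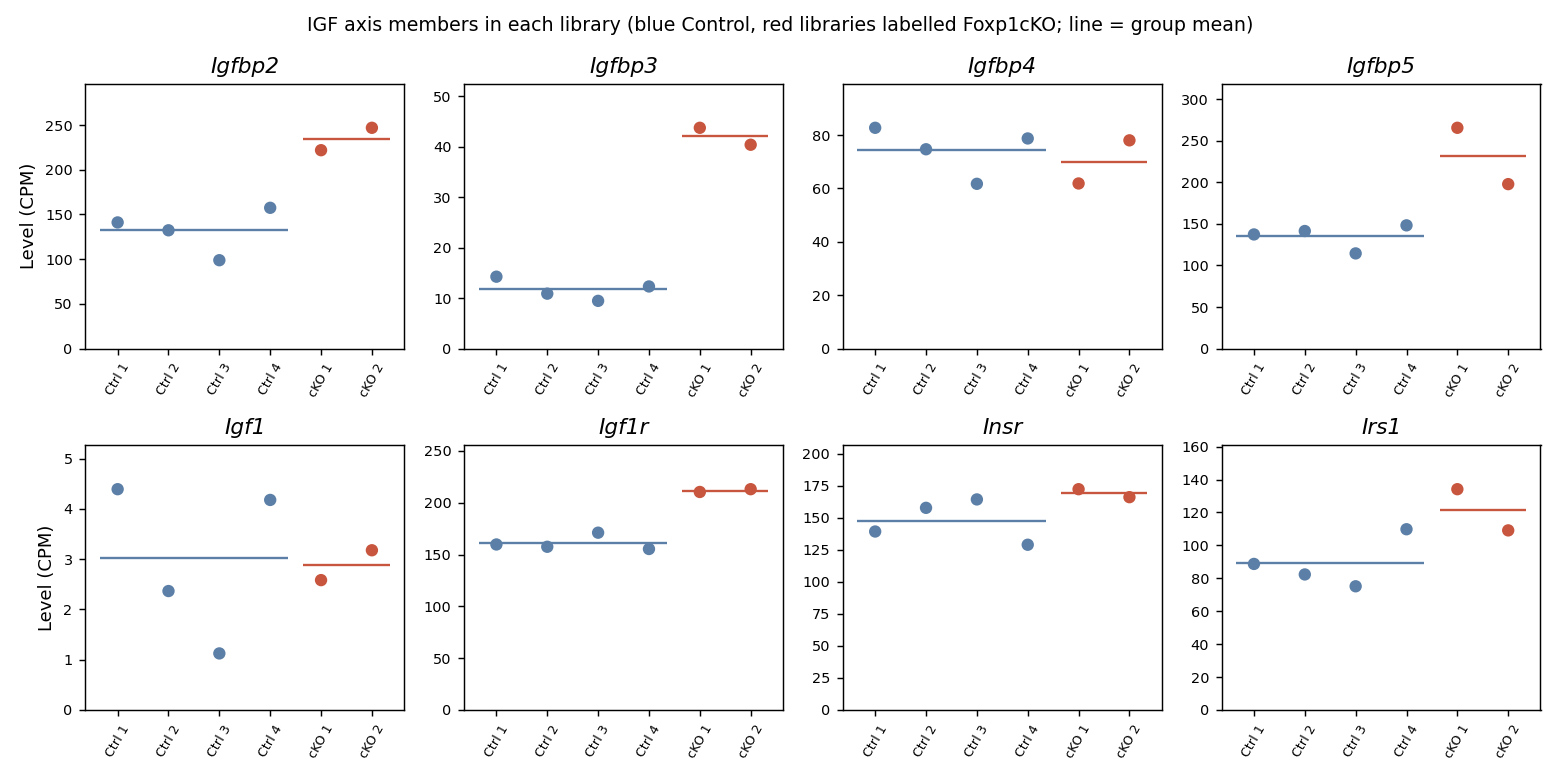
Level of each of the 8 genes (CPM, axis from 0) in the 4 Control libraries (blue) and the 2 libraries labelled Foxp1cKO (red), with a line at each group mean. The red points lie above all blue points for Igfbp2, Igfbp3, Igfbp5, Igf1r and Insr, while the groups overlap for Igfbp4, Igf1 and Irs1.

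Igfbp3 was the one member called by edgeR. Its level was 14.2, 10.9, 9.45 and 12.3 CPM in controls 1 to 4 and 43.7 and 40.4 CPM in the libraries labelled Foxp1cKO. Every control lay below both of these libraries, and the spread within each group was small beside the gap. Igfbp3 (ENSMUSG00000020427.11, chromosome 11, 7206086 to 7213923, minus strand) was 3.59-fold higher, with a 95% interval of 2.77 to 4.66 (log2 fold change 1.84, SE 0.159, edgeR adjusted p = 0.0130, by Benjamini-Hochberg over the 17068 genes). It was the ninth gene of the table by p-value, and 26 genes, or 0.152% of those tested, were called higher. Against control 4, the control whose globin level was near that of the libraries labelled Foxp1cKO, the log2 difference of their mean was 1.77. With globin level as a 2-level covariate, added after the data were seen, the log2 fold change was 1.77 (adjusted p = 0.316 by edgeR), an estimate that rests on control 4 alone among the controls. The call was lost without control 2 (log2 fold change 1.81, adjusted p = 0.0773), without Foxp1cKO 1 (1.78, adjusted p = 0.0914) and without Foxp1cKO 2 (1.88, adjusted p = 0.149), each by edgeR.

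Igfbp2 was the most abundant of the 4 binding protein genes per kilobase in controls and is known from the neuroepithelium. It had 141, 132, 98.8 and 157 CPM in controls 1 to 4. In the libraries labelled Foxp1cKO it had 222 and 247 CPM. Both lay above all controls, and control 3 was the lowest of the group. Igfbp2 (ENSMUSG00000039323.18, chromosome 1, 72824503 to 72852474, plus strand) had a log2 fold change of 0.82 with a 95% interval of 0.42 to 1.22, and it did not pass the threshold (adjusted p = 0.227, edgeR). DESeq2 gave nearly the same fold change with an adjusted p of 0.00158. Igfbp2 was thus called by one tool and not by the other.

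Igfbp5, a binding protein that attaches to extracellular matrix, lies 5457 bases from Igfbp2 on chromosome 1, the genes meeting at their 3′ ends (ENSMUSG00000026185.8, 72857932 to 72874884, minus strand). Its level was 137, 141, 115 and 148 CPM in controls 1 to 4 and 266 and 198 CPM in the libraries labelled Foxp1cKO. Both of the latter were above every control, but they differed from each other more than for Igfbp2 or Igfbp3. Relative to the control mean, Igfbp5 was 1.96-fold in Foxp1cKO 1 and 1.46-fold in Foxp1cKO 2, while Igfbp2 was 1.68-fold and 1.86-fold. Igfbp5 had a log2 fold change of 0.78 (95% interval 0.44 to 1.11, adjusted p = 0.185 by edgeR, 0.000493 by DESeq2).

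Igfbp4, a binding protein known mainly as an inhibitor of IGF and as a substrate of the protease PAPP-A, had 82.7, 74.7, 61.7 and 78.7 CPM in controls 1 to 4. Values of 61.9 and 78.0 CPM were measured in the libraries labelled Foxp1cKO. These values lie within the range of the controls. The log2 fold change of Igfbp4 (ENSMUSG00000017493.12, chromosome 11, 99041244 to 99054392, plus strand) was -0.090 (95% interval -0.43 to 0.25, adjusted p = 0.827 by edgeR), so a change beyond 1.19-fold upward or 0.742-fold downward lies outside the interval.

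With Igfbp4 within its control range and the other 3 genes above theirs, the makeup of the binding protein transcripts differed between the groups. The summed level of the 4 genes was 89.6 to 132 CPM per kilobase in controls and 192 and 197 in the libraries labelled Foxp1cKO. The share of Igfbp4 in that sum was 15.3%, 14.6%, 15.6% and 13.5% in controls 1 to 4 and 7.28% and 8.96% in the libraries labelled Foxp1cKO. The share of Igfbp3 was 3.71%, 3.01%, 3.37% and 2.99% in controls and 7.26% and 6.54% in the libraries labelled Foxp1cKO. For both genes the groups did not overlap. Igfbp2 held 59.7% to 64.7% of the sum in controls and 62.4% and 67.8% in the libraries labelled Foxp1cKO, and Igfbp5 held 18.7% to 21.3% against 23.0% and 16.7%. The number of Igfbp3 reads for each Igfbp4 read was 0.146 to 0.172 in controls and 0.707 and 0.518 in the libraries labelled Foxp1cKO. With 4 libraries against 2, the smallest two-sided p of an exact permutation test is 0.133, so these shares and ratios are given without a test.

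**Figure D2:**
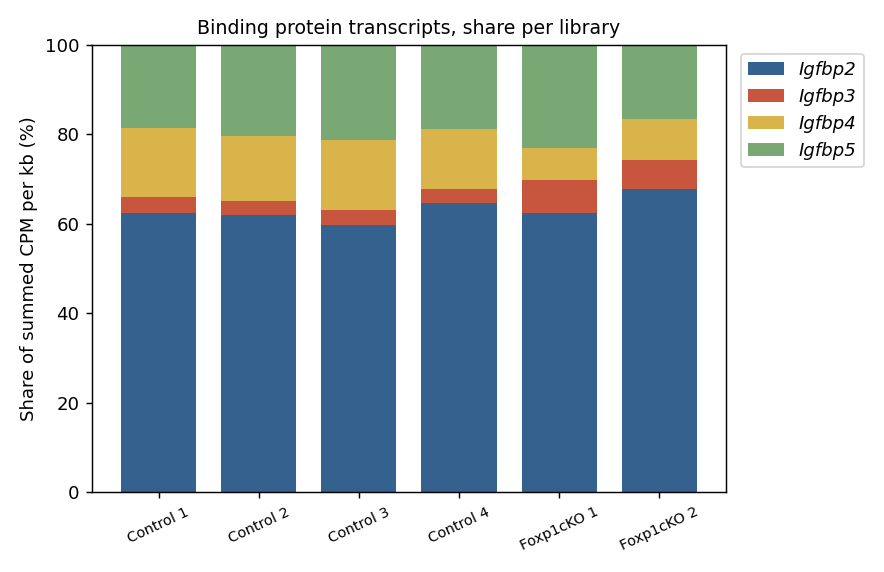
Share of each binding protein gene in the summed CPM per kilobase of Igfbp2, Igfbp3, Igfbp4 and Igfbp5 (percent, bars stacked to 100%), one bar per library. The Igfbp3 band is 2.99% to 3.71% in the controls and 6.54% and 7.26% in the libraries labelled Foxp1cKO, and the Igfbp4 band is 13.5% to 15.6% and 7.28% and 8.96%.

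Igf1, the ligand, was the scarcest of the 8 genes and the one that varied most. It had 4.39, 2.37, 1.13 and 4.18 CPM in controls 1 to 4, from 272, 147, 82 and 329 counts, and 2.58 and 3.18 CPM in the libraries labelled Foxp1cKO. The controls spanned 3.90-fold, with both other libraries inside that span. The log2 fold change of Igf1 (ENSMUSG00000020053.18, chromosome 10, 87858265 to 87937042, plus strand) was -0.064 with a 95% interval of -1.28 to 1.15 (adjusted p = 0.974 by edgeR), which takes in fold changes from 0.412 to 2.22, so a change of that size was not detectable with this spread. Counting error at the lowest count was 11%, while the coefficient of variation among controls was 51.5%.

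The Igf1 level moved with markers of meningeal fibroblasts, which can come along with dissected cortex, and with those of microglia. The 11 listed meningeal genes in the table, Col1a1 and Dcn among them, summed to 619, 214, 123 and 438 CPM in controls 1 to 4 and to 204 and 392 CPM in the libraries labelled Foxp1cKO. Controls 1 and 4 were the highest in both measures, control 3 was the lowest in both, and only control 2 and Foxp1cKO 1 changed places. The 10 microglial genes summed to 56.2, 37.7, 27.3 and 50.3 CPM in controls 1 to 4 and to 49.1 and 48.1 CPM in the libraries labelled Foxp1cKO, an order in which only these last 2 changed places. The order of the controls was not particular to these lists. Endothelial genes (234, 158, 153 and 188 summed CPM in controls 1 to 4) and mural cell genes (249, 226, 202 and 248) ordered the controls as Igf1 did. Their sums in the libraries labelled Foxp1cKO did not follow Igf1. The endothelial gene Cdh5, named after its values were seen, ordered all 6 libraries as Igf1 did. No gene of the meningeal or microglial list was at 0 in any library, and none was called by edgeR. In bulk samples, fewer cells of a type and less RNA per cell cannot be told apart, and the part of these cells in the Igf1 level was not tested.

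**Figure D3:**
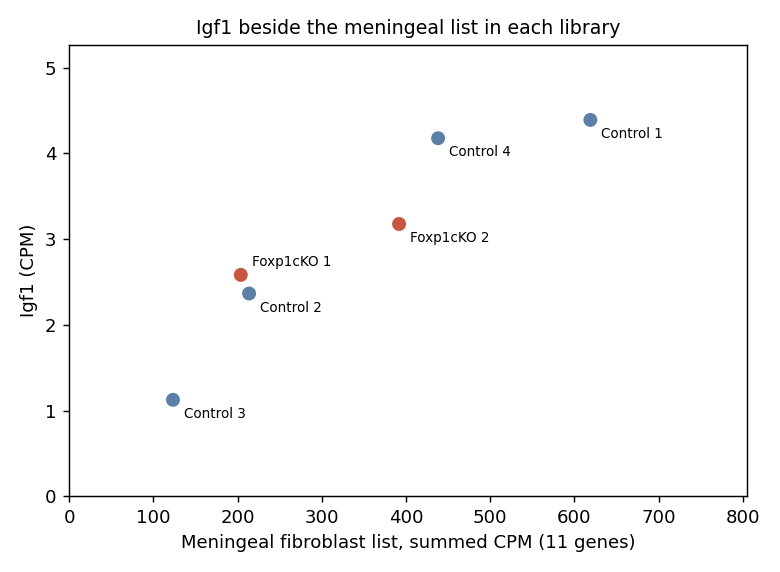
Igf1 level (CPM, vertical) against the summed level of 11 meningeal fibroblast genes (CPM, horizontal), both axes from 0, one point per library (blue Control, red labelled Foxp1cKO). Control 3 has the lowest value on both axes (1.13 and 123 CPM) and control 1 the highest (4.39 and 619 CPM).

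Igf1r, the receptor for IGF1, had 160, 158, 171 and 155 CPM in controls 1 to 4 and 210 and 213 CPM in the libraries labelled Foxp1cKO. The groups were apart, and the controls had a coefficient of variation of 4.36%, the lowest of the 8 genes. Igf1r (ENSMUSG00000005533.10, chromosome 7, 67952827 to 68233668, plus strand) had a log2 fold change of 0.40 (SE 0.0705, 95% interval 0.23 to 0.56), a 1.32-fold difference that did not pass the threshold with edgeR (adjusted p = 0.175) and passed it with DESeq2 (adjusted p = 0.000593).

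Insr, the insulin receptor, had 139, 158, 164 and 129 CPM in controls 1 to 4 and 172 and 166 CPM in the libraries labelled Foxp1cKO. Both were above all controls, although Foxp1cKO 2 and control 3 lay close together. The log2 fold change of Insr (ENSMUSG00000005534.10, chromosome 8, 3122061 to 3279617, minus strand) was 0.20 with a 95% interval of -0.06 to 0.46 (adjusted p = 0.483 by edgeR, 0.527 by DESeq2). Per kilobase, the ratio of Igf1r to Insr was 0.939, 0.818, 0.853 and 0.987 in controls 1 to 4 and 1.00 and 1.05 in the libraries labelled Foxp1cKO. Foxp1cKO 1 was close to control 4 in this ratio.

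Irs1, an adaptor that both receptors phosphorylate, had 88.7, 82.3, 75.1 and 110 CPM in controls 1 to 4 and 134 and 109 CPM in the libraries labelled Foxp1cKO. Foxp1cKO 2 was just below control 4, so the groups overlapped. Irs1 (ENSMUSG00000055980.2, chromosome 1, 82233101 to 82291416, minus strand) had a log2 fold change of 0.45 (95% interval 0.07 to 0.83, adjusted p = 0.332 by edgeR), and against control 4 alone the log2 difference of the mean was 0.15. In GENCODE M21, 2822 of the 9144 exon bases of Irs1 are shared with Gm9747 on the opposite strand. The libraries were stranded but the strand setting of the counting is not given in the sources used here, so the Irs1 value is uncertain to that extent.

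Across the 8 genes, edgeR called 1 higher and 0 lower, where it called 0.152% of all genes higher. Because the 8 were chosen with earlier results of these data known, the shares of all genes beside these counts are no test of an excess. At an unadjusted p under 0.05, 5 of the 8 were higher, against 6.53% of all genes. In 5 of the 8 both libraries labelled Foxp1cKO were above all controls, as were 11.5% of all genes, and in 0 of the 8 both were below, as were 13.1%. DESeq2 called 4 of the 8 higher (Igfbp2, Igfbp3, Igfbp5 and Igf1r), against 1.82% of all genes. The median log2 fold change of the 8 genes was 0.42, and that of all genes was -0.0044.

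**Figure D4:**
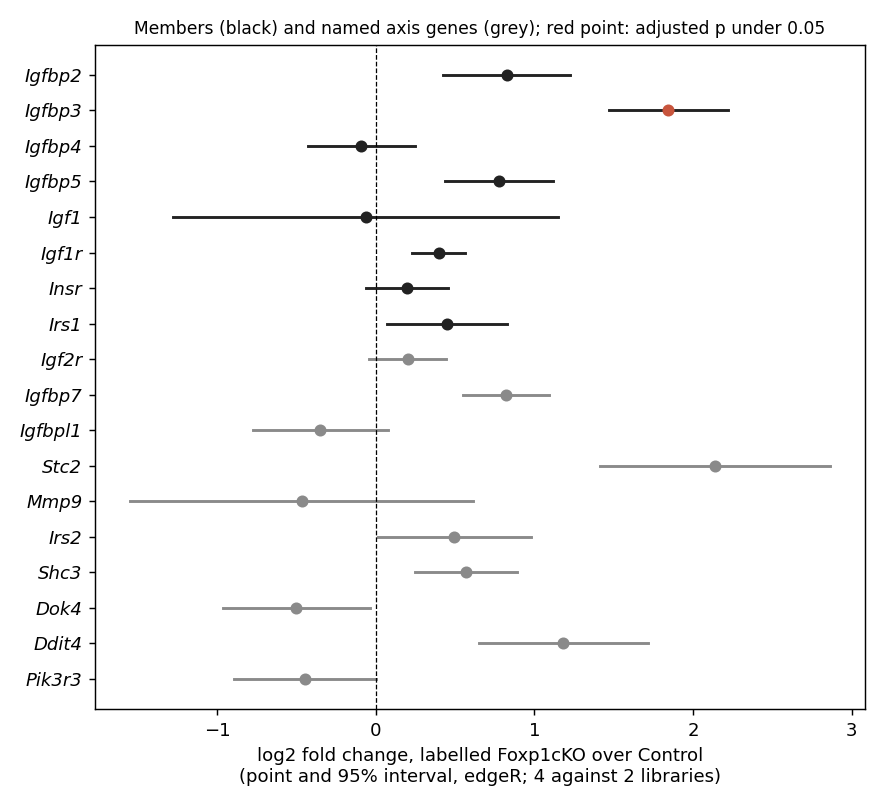
Log2 fold change of the libraries labelled Foxp1cKO over Control with its 95% interval (edgeR, 4 against 2 libraries) for the 8 genes (black) and for named genes of the other axis lists (grey), with a red point where the adjusted p was under 0.05. Igfbp3 at 1.84 is the one gene with a red point, and Stc2 at 2.14 lies further right with a wider interval.

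The rest of the axis was read from 4 lists, also chosen with earlier results known. They hold 81 genes, of which 74 were in the table. None of the 74 was called by edgeR in either direction. At an unadjusted p under 0.05, 9 were higher (12.2%, against 6.53% of all genes) and 4 lower (5.41%, against 6.50%). DESeq2 called 6 higher (8.11%, against 1.82% of all genes) and 1 lower (1.35%, against 1.15%). Their median log2 fold change was -0.014, near that of all genes.

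Among the other ligands, receptors and carriers, 6 of 12 listed genes were in the table. Igf2, a listed ligand, was not found in it, so its level is not known here. Igf2r, the receptor that clears IGF2, had 128 to 158 CPM in controls and 178 and 155 CPM in the libraries labelled Foxp1cKO (log2 fold change 0.20, adjusted p = 0.450 by edgeR). The highest estimate was that of Igfbp7, a secreted IGFBP-related protein of vessels, with 9.67 to 10.7 CPM in controls against 17.1 and 19.3 CPM (log2 fold change 0.82, adjusted p = 0.0758 by edgeR). The lowest estimate was that of Igfbpl1, at 266 to 393 CPM in controls against 240 and 311 CPM (log2 fold change -0.35, adjusted p = 0.453 by edgeR). Neither passed the threshold with edgeR, while DESeq2 called Igfbp7 (adjusted p = 4.15e-09), and the Igfbpl1 groups overlapped.

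Among the proteases that cut binding proteins and the inhibitors of these proteases, 14 of 15 listed genes were in the table. Stc2, a stanniocalcin that inhibits PAPP-A, had 4.91, 3.11, 2.91 and 5.35 CPM in controls 1 to 4 and 13.7 and 22.1 CPM in the libraries labelled Foxp1cKO. The groups were far apart, but the log2 fold change of 2.14 (SE 0.306) did not pass the threshold with edgeR (adjusted p = 0.0758), which it did without control 4, with 1 surrogate variable and with DESeq2 (adjusted p = 1.91e-08). Its relative Stc1 and the protease gene Pappa, both named after their values were seen, were also above all controls in both of these libraries. Stc1 had 5.09 to 7.72 CPM in controls against 10.7 and 12.5 CPM (adjusted p = 0.248 by edgeR, 0.0200 by DESeq2). Pappa had 9.83 to 28.3 CPM against 52.4 and 29.0 CPM (adjusted p = 0.343 by edgeR, 0.11 by DESeq2). The lowest estimate was that of Mmp9, a matrix metalloprotease, with 1.80 to 6.10 CPM in controls against 3.28 and 3.14 CPM (log2 fold change -0.47, adjusted p = 0.693 by edgeR). The Mmp9 values of both groups overlapped.

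All 20 listed adaptors and inhibitors of the receptors were in the table, 10 of them with a higher and 10 with a lower estimate. Irs2, an adaptor related to Irs1, had 24.3, 30.6, 37.8 and 22.3 CPM in controls 1 to 4 and 40.9 and 40.1 CPM in the libraries labelled Foxp1cKO (log2 fold change 0.50, adjusted p = 0.374 by edgeR). Both values were above those of all controls, with control 3 close to them. The highest estimate was that of Shc3, a Shc adaptor of neurons, at 23.8 to 32.8 CPM in controls against 42.4 and 40.7 CPM (log2 fold change 0.57, adjusted p = 0.242 by edgeR, 0.0198 by DESeq2). The lowest estimate was that of Dok4, a docking protein, at 29.2 to 46.4 CPM against 26.3 and 31.4 CPM (log2 fold change -0.50, adjusted p = 0.363 by edgeR).

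All 34 listed PI3K, AKT and mTOR effectors were in the table, 13 with a higher and 21 with a lower estimate. Ddit4 (also REDD1), an inhibitor of mTORC1, had 68.1, 78.3, 71.8 and 54.3 CPM in controls 1 to 4 and 112 and 197 CPM in the libraries labelled Foxp1cKO. Both were above every control but differed widely from each other, and the log2 fold change of 1.18 (SE 0.226) did not pass the threshold with edgeR (adjusted p = 0.194) and passed it with DESeq2 (adjusted p = 0.000387). The lowest estimate was that of Pik3r3, a regulatory subunit of PI3K, at 87.4 to 142 CPM in controls against 89.4 and 86.6 CPM (log2 fold change -0.45, adjusted p = 0.384 by edgeR). Control 4 was at the level of both libraries labelled Foxp1cKO for Pik3r3, and the log2 difference from it was 0.010.

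The genes whose pattern over the 6 libraries was most like that of Igfbp3 were ranked by Pearson's r of log2 CPM among 16994 genes. They were Smyd3 (r = 0.994), Esm1 (0.994), 5430402O13Rik (0.993), Lcp1 (0.992) and Adm (0.990). These r are descriptions over 6 points that fall into the same 2 groups, so any gene with a gap between the groups and little spread within them scores high. The 5 genes differed in size of change, from a log2 fold change of 0.32 for Smyd3, a histone methyltransferase gene, to 3.20 for Esm1, an endothelial proteoglycan gene. Adm, which encodes the vasoactive peptide adrenomedullin, had 0.974 to 1.36 CPM in controls against 5.38 and 6.41 CPM (log2 fold change 2.43, adjusted p = 0.0130 by edgeR). Esm1 was also called (adjusted p = 0.0175), and the other 3 were not.

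**Figure D5:**
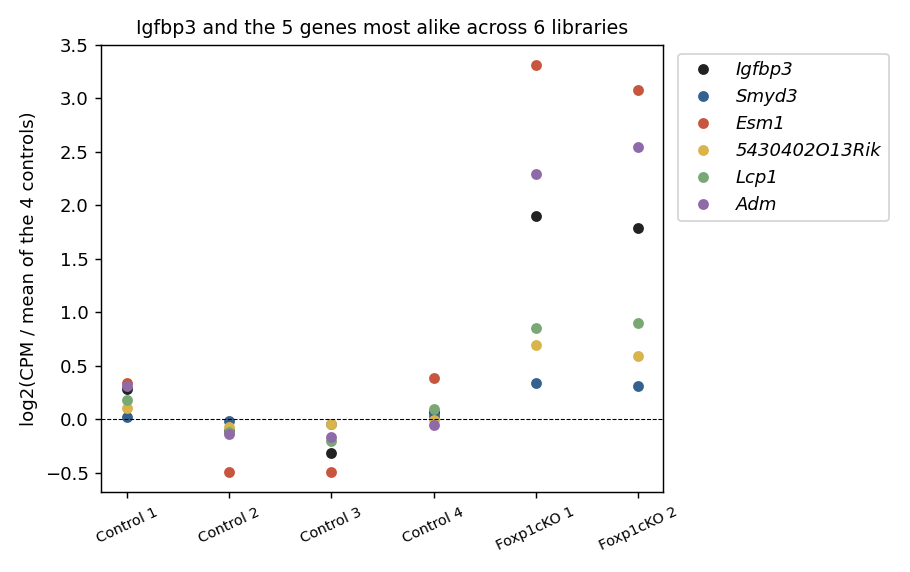
Log2 ratio of each library's CPM to the mean of the 4 controls, for Igfbp3 and the 5 genes most like it over the 6 libraries, one point per gene and library. For each gene the controls scatter around 0, most widely for Esm1 (0.917 to 1.69 CPM). The libraries labelled Foxp1cKO lie above the controls of the same gene, by most for Esm1 and by least for Smyd3.

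Markers of other cell types and low-oxygen genes were measured in the same libraries. A reference list of 13 HIF-1 target genes, to which Adm belongs, was chosen with earlier results of these data known. Of the 13, edgeR called 5 higher, against 0.152% of all genes, and DESeq2 called 11, against 1.82%. With the replicate block 0 were called, as were 0 genes in all. When 1 control was left out, 1 to 8 were called, among 2 to 96 genes in all. The median log2 fold change of the list was 1.36, and its genes summed to 762 to 1163 CPM in controls against 2269 and 2876 CPM. The 10 pericyte and mural cell genes summed to 202 to 249 CPM in controls and to 306 and 318 CPM in the libraries labelled Foxp1cKO, with 0 called and a median log2 fold change of 0.52. The 10 endothelial genes summed to 153 to 234 CPM against 211 and 261 CPM, with 1 called by edgeR (Flt1). Their median log2 fold change was 0.068, with 7 estimates higher and 3 lower, and DESeq2 called 2 higher (20%, against 1.82% of all genes). Flt1 alone was at 12.5 to 18.1 CPM in controls against 44.6 and 54.2 CPM. The 10 red cell genes summed to 1115 to 3615 CPM against 3909 and 4200 CPM. Of these, edgeR called 0 and DESeq2 called 1 higher (10%, against 1.82% of all genes). Of the sums in this paragraph, the endothelial one overlapped between the groups and the others did not. The meningeal and microglial sums given above also overlapped. No gene of these lists was at 0 in any library. Vessel cells and mural cells can express Igfbp3, Igfbp5 and Igfbp7, and the part of these cell types in the differences was not tested.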

How the data were processed

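The authors prepared stranded libraries (TruSeq) from total RNA of lateral cortex, aligned the reads to mm10 with STAR, and counted them on genes with HTSeq 0.9.1 in union mode, leaving out genes with few counts. They deposited raw counts of 17068 genes and VST values on a log2-like scale, which a blind transformation of these counts in DESeq2 matched to within 1.1e-10. From the counts, edgeR 4.0.16 (R 4.3.3) gave TMM-scaled CPM and quasi-likelihood tests on group alone over all genes, with Benjamini-Hochberg adjustment at 0.05. The authors also modelled litter, which was not used here. Exon lengths and positions came from GENCODE M21, in which 17047 identifiers matched. Promoter windows came from RefSeq GRCm38.p6.

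The members and lists were chosen with earlier results of these data known. Named genes were the 8 members, Foxp1, Igf2r, Irs2, the highest and lowest log2 fold change of each axis list and any gene of those lists past the threshold (with a mean of at least 10 counts), and the 5 genes most like each called member. Alternatives were DESeq2 1.42.0, limma 3.58.1 on the VST values, other size factors, low-count filters, leaving out 1 library at a time, the replicate block, 1 surrogate variable (sva 3.50.0) and a robust fit. A globin covariate was added later. Tests were tried on simulated data. Between replicates the chi-square per gene was 25.9 to 193, so no library was a repeat of another.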

Additional observations from a re-analysis of the deposited data

Results flagged for a closer look

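Of 19 sets of 4 control values tested for an outlier by Dixon's rule (the 8 members and 11 marker or reference lists), 2 were past the critical value, and chance gives about 1 in 20. No member was among them. Cortex identity genes summed to 1315 CPM in control 3, below the 1716 to 1799 CPM of the other controls, a gap that barely passes. Red cell genes summed to 3615 CPM in control 4, above the 1115 to 1473 CPM of the other controls. Without control 3, the log2 fold change of Igfbp2 was 0.69, and without control 4 it was 0.92, neither past the threshold. Igfbp3 kept its call without either.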

How the results depend on the processing

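Igfbp3 kept its direction under every alternative run (log2 fold change 1.61 to 1.93), and its call under 11 of 16. The replicate block paired libraries 1 and 2 of each group by number alone (correlations of deviations -0.20 and 0.020). Controls 3 and 4 had no partner and added nothing to the estimate, which left little to measure the spread by. With the block, Igfbp3 was 1.75 (adjusted p = 0.0992 by edgeR), and 0 members and 0 genes in all were called, against 26 genes without the block. With the globin covariate it was 1.77, with 0 members called, while Irs1 moved from 0.45 to 0.15, Insr from 0.20 to 0.39 and Igf1 from -0.064 to -0.53, none past the threshold. DESeq2 called 4 members, with Igfbp2 at 0.83, Igfbp5 at 0.78 and Igf1r at 0.40, 7 genes of the wider axis and 507 genes in all. With 1 surrogate variable, 4 members (Igfbp2 0.87, Igfbp5 0.80, Igf1r 0.39), 4 axis genes and 247 genes were called, and Igf1 was 0.19. Igf1 was 0.025 with limma on the VST values. The causes of these shifts were not tested. Leaving out 1 library gave 0 or 1 members called, 0 or 1 axis genes, 2 to 96 genes in all, and log2 fold changes of 1.74 to 1.93 for Igfbp3, -0.28 to 0.067 for Igfbp4 and -0.35 to 0.16 for Igf1. Differences in share then ran from 0.257 to 5.60 points for Igfbp2, 3.27 to 4.00 for Igfbp3, -7.48 to -5.81 for Igfbp4 and -3.06 to 3.23 for Igfbp5. Without division by exon length, the Igfbp4 share differed by -8.95 points and the Igfbp5 share by 1.57 points, and 3 of 8 genes kept their rank of level. Counting error at the lowest count was at most 11% (Igf1), under the spread between controls for every member.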

Other observations

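Control 3, the one Foxp1 fl/fl control and the library highest in ventral telencephalon and neuron genes, stood at the edge of the controls for every member. It was the lowest control for Igfbp2, Igfbp3, Igfbp4, Igfbp5, Igf1 and Irs1 and the highest for Igf1r (171 CPM) and Insr (164 CPM). Neuron genes summed to 5312 CPM in it, against 2903 to 4810 CPM in the other controls. The log2 difference of the Foxp1cKO mean from control 3 alone was 2.15 for Igfbp3, 1.36 for Igf1, 1.25 for Igfbp2, 1.02 for Igfbp5, 0.69 for Irs1, 0.31 for Igf1r, 0.18 for Igfbp4 and 0.042 for Insr. Genotype, region and neuron content cannot be told apart in this library.

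Socs2 and Foxo3, further genes of the axis, were called by DESeq2 and are named here after their values were seen. Socs2, which encodes a suppressor of cytokine and growth hormone signalling, had 39.4 to 42.8 CPM in controls and 33.2 and 30.9 CPM in the libraries labelled Foxp1cKO (adjusted p = 0.236 by edgeR, 0.00406 by DESeq2). Foxo3, a forkhead factor that AKT holds out of the nucleus, had 37.3 to 46.8 CPM in controls and 56.0 and 62.7 CPM in the libraries labelled Foxp1cKO (adjusted p = 0.225 by edgeR, 0.00635 by DESeq2).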
